A study of Mus musculus with 12 samples.

Results

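The genes described here encode the digestive enzymes of the lysosome and the proteins of its limiting membrane. They were taken by name from a list of 36 symbols, and 36 of 36 were found among the 24189 genes that the 10 RNA-seq libraries of the study have in common. For *Ctsa*, *Ctsb*, *Ctsz*, *Glb1* and *Npc1*, the deposited name carries the suffix _IMP_OVL, which was removed for the match and whose meaning is not given in the sources used here. By role, the 36 genes comprise 4 lysosomal membrane glycoproteins (*Lamp1*, *Lamp2*, *Cd63*, *Scarb2*), 3 transporters and channels (*Npc1*, *Slc17a5*, *Mcoln1*), 11 proteases (*Ctsa*, *Ctsb*, *Ctsc*, *Ctsd*, *Ctsf*, *Ctsh*, *Ctsl*, *Ctss*, *Ctsz*, *Lgmn*, *Tpp1*), 11 glycosidases and sulfatases (*Hexa*, *Gla*, *Glb1*, *Gaa*, *Gusb*, *Galns*, *Naglu*, *Neu1*, *Man2b1*, *Manba*, *Fuca1*), 6 lipid hydrolases or their activators (*Asah1*, *Smpd1*, *Lipa*, *Ppt1*, *Npc2*, *Psap*) and *Creg1*, a secreted glycoprotein that is found in lysosomes. The question was how these genes are expressed in antibody-secreting cells that lack the transcription factors Xbp1 or Mist1, the latter encoded by *Bhlha15*.

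The libraries fall into 5 groups of 2. Plasmablasts (PBs) were obtained from control mice (*Xbp1* fl/fl), from mice lacking Xbp1 in B cells (*Cd23*-Cre *Xbp1* fl/fl, Xbp1-deficient PBs in what follows) and from *Bhlha15* CreER/CreER mice, whose *Bhlha15* alleles carry CreER. They were grown from splenic B cells in the iGB system, in which B cells lie on 40LB feeder cells, a fibroblast line that carries CD40 ligand and BAFF, and receive first IL-4 and then IL-21. After 8 days, CD138+CD23- cells were sorted. Plasma cells (PCs), gated as TACI+CD138+, came from the spleen 7 days after immunization with NP-KLH, from *Cd23*-Cre *Bhlha15* fl/fl mice and from controls, which GEO's labels call wild type and the sample table of the study calls *Bhlha15* fl/fl. *Cd23*-Cre acts during B cell maturation and therefore deletes in B cells well before they become PBs, so that its mutants lack the gene throughout the response. The control of the *Bhlha15* CreER/CreER PBs used here is *Xbp1* fl/fl, another genotype, and the control groups carry no Cre. The mice were on the C57BL/6 background, and the labels do not say whether the 2 libraries of a group come from separate mice. In addition, 2 lists of Mist1 peaks were available from a biotin-mediated ChIP-seq experiment with *Bhlha15* fl/fl R26 BirA/BirA PBs on day 4 of LPS stimulation.

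Lysosomes degrade material that arrives by endocytosis and autophagy. Their hydrolases are made in the ER, pass the Golgi apparatus and are sorted to the lysosome mostly by a mannose 6-phosphate tag, whereas the membrane proteins shield the membrane, carry the products out and release ions. Many lysosomal genes carry a short E-box variant in their promoters, TCACGTG, which lies at the core of the so-called CLEAR element and is bound by TFEB and its relatives, while Mist1 belongs to the bHLH family, whose members bind E-boxes (CANNTG). In antibody-secreting cells, lysosomes share the secretory pathway with the immunoglobulin chains.

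Values are deposited TPM, a measure of transcript abundance relative to the whole library. They are corrected for gene length and can thus be compared between genes. The targeted genes were looked at first. *Bhlha15* had 176 and 159 TPM in control PBs, at 0.210 and 0.551 TPM in *Bhlha15* CreER/CreER PBs, and at 3.57 and 2.60 TPM in Xbp1-deficient PBs, so that the PBs lacking Xbp1 also had little Mist1 mRNA. In PCs, it was at 258 and 242 TPM in the controls against 14.4 and 16.6 TPM in the Mist1-deficient libraries (*Cd23*-Cre *Bhlha15* fl/fl). *Xbp1* itself had 3168 and 3043 TPM in control and 1981 and 2024 TPM in Xbp1-deficient PBs. These are values over whole genes, and a deletion of single exons leaves the others to be counted. The PC gene *Sdc1*, encoding CD138, was at 157 to 166 TPM in the 6 PB libraries and at 395 to 571 TPM in the 4 PC libraries. Markers of other cells were present at different levels in the groups. Of 12 fibroblast genes, the sum was 984 to 1937 TPM in the PBs and 27.5 to 32.7 TPM in the PCs. The 11 neutrophil genes summed to 4.05 to 11.7 TPM in the control and *Bhlha15* CreER/CreER PBs, to 139 and 137 TPM in the Xbp1-deficient PBs and to 475 to 1008 TPM in the PCs. Macrophage genes summed to 104 to 248 TPM in the PBs, where 13 of 17 were under 1 TPM in each library, and to 216 to 291 TPM in the PCs.

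Several promoters of these genes hold the TCACGTG motif, and 5 of them are shown because they come back in the results. *Lamp1* had 4 matches at 4 separate CACGTG sites, whereas the 4 matches of *Gla* lay at 2 sites. A site reading TCACGTGA counts once on each strand. The other 4 shown, *Mcoln1*, *Ctsb*, *Glb1* and *Gaa*, were higher in PCs without Mist1. The motif was about as common among members without a call there (5 of 14) as among those that were higher (4 of 12). *Ctsb*, *Glb1* and *Gaa* were also lower in Xbp1-deficient PBs. The 5 promoters were read from the mm9 genome on the strand of the gene. They run from 60 bases (90 for *Gaa*) before the annotated start to 30 bases from the start onwards, and capitals mark TCACGTG on either strand. They lie at chr8:13159075-13159164 (*Lamp1*, + strand), chr8:3500397-3500486 (*Mcoln1*, + strand), chr14:63741242-63741331 (*Ctsb*, + strand), chr9:114310134-114310223 (*Glb1*, + strand) and chr11:119129111-119129230 (*Gaa*, + strand).
Lamp1: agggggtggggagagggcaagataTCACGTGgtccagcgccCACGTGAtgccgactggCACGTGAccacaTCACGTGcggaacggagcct
Mcoln1: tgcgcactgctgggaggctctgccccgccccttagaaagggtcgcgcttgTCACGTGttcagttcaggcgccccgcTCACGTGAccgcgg
Ctsb: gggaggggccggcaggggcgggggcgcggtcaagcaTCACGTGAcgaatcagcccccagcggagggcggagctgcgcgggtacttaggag
Glb1: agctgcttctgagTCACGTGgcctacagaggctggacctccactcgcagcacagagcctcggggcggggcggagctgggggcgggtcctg
Gaa: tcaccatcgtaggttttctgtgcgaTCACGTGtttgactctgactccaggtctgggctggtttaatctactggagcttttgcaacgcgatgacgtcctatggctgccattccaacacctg

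In all, 9 of the 36 genes (25.0%) had TCACGTG within 250 bases before to 50 bases after the start, namely *Lamp1*, *Mcoln1*, *Ctsb*, *Ctsd*, *Hexa*, *Gla*, *Glb1*, *Gaa* and *Naglu*. The same motif was present in 5.85% of the 10592 annotated genes that were tested in PCs and in 4.14% of all 22232 promoters read. The shorter palindrome CACGTG, which TCACGTG contains, was found in 10 members (27.8%) and in 9.97% of the tested genes, and the additional member was *Ctsf*. CAGCTG was seen in 9 members (25.0%, tested genes 14.2%), and CANNTG, which covers the other forms, in 26 (72.2%, tested genes 63.6%). A match describes the letters only and is not evidence that a factor binds there.

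The level of the members spanned more than 3 orders of magnitude. In *Xbp1* fl/fl PBs, 35 of 36 were at 10 TPM or more and 23 at 100 TPM or more, and the median was 125 TPM. *Ctss*, a cysteine protease of the MHC class II pathway, was the highest with 1156 ± 23.8 TPM (mean ± SD, n = 2), above 99.2% of the genes at 1 TPM or more. It was followed by *Ctsz* (907 ± 10.1 TPM), *Ctsh* (734 ± 23.3 TPM) and *Ctsd* (715 ± 12.1 TPM), and the last pair did not differ beyond their spread. At the other end stood *Npc1*, the cholesterol exporter, with 18.7 ± 0.550 TPM, the mannosidase gene *Manba* with 18.8 ± 1.10 TPM and *Ctsf* with 0.387 ± 0.0316 TPM. *Npc1* and *Manba* were likewise within their spread of each other. The 5 highest members took 44.8% of the summed TPM of the 36.

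**Figure D1:**
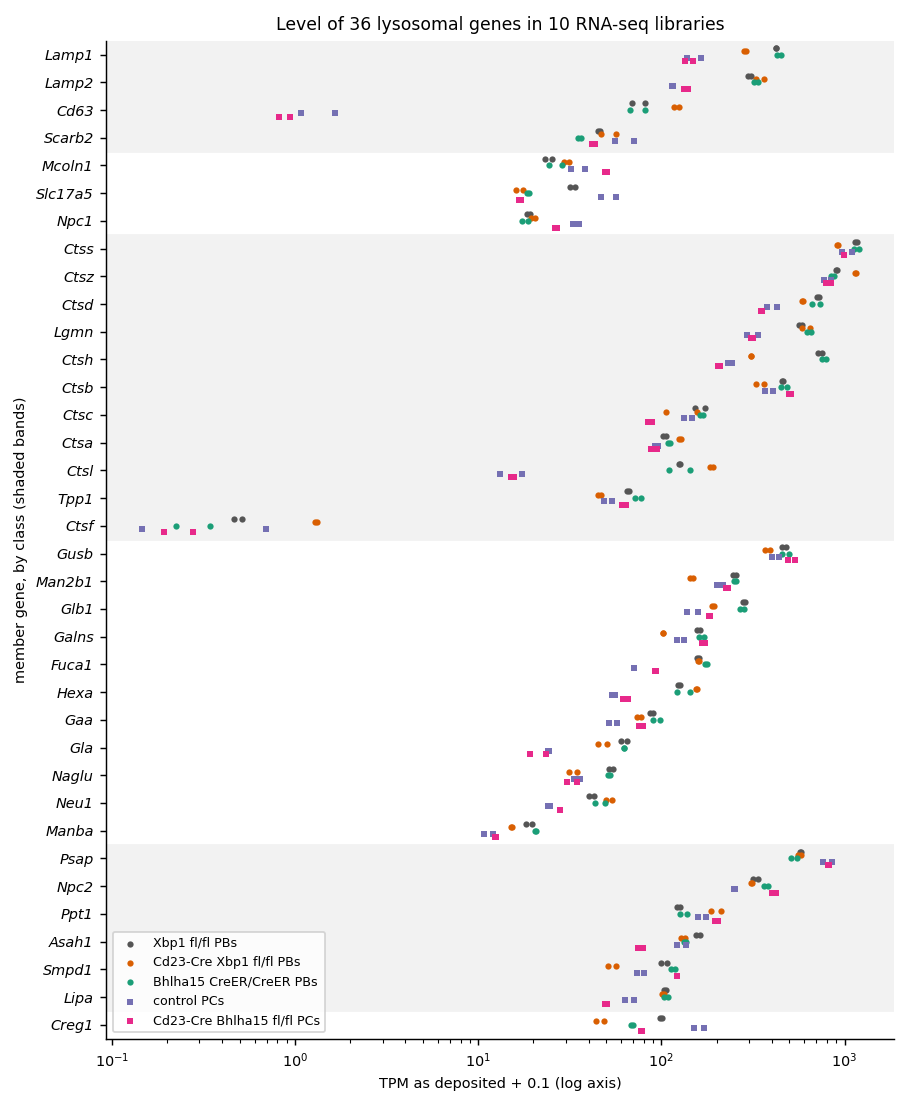
TPM as deposited plus 0.1 on a log axis for each of the 36 genes, with 1 point per library and colours for the 5 groups (circles, PBs; squares, PCs); shaded bands separate the classes. Most genes lie between 10 and 1000 TPM, *Ctsf* lies near or under 1 TPM in the 10 libraries, and *Cd63* and *Ctsl* lie far lower in PCs than in PBs.

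The members together made up 0.918% and 0.906% of the TPM in control PBs, 0.805% and 0.807% in Xbp1-deficient PBs and 0.921% and 0.922% in *Bhlha15* CreER/CreER PBs. The Xbp1-deficient libraries were thus the lowest of the PBs. In PCs, the share was 0.709% and 0.644% in the controls and 0.710% and 0.696% in the mutants, and these ranges overlapped. Between both libraries of a group, the median difference of a member was 0.05 to 0.20 on the log2 scale.

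In the absence of Xbp1, expression of many lysosomal hydrolase genes fell moderately. Of the 36 members tested in Xbp1-deficient against control PBs, 20 were lower and 3 higher at an adjusted p-value under 0.05 (limma on the log2 of scaled TPM + 0.1, Benjamini-Hochberg over 12125 genes), where 18.0% of all genes tested were lower and 10.3% higher. The median log2 difference was -0.45 for the members and 0.00 for all genes. None of the members passed the 3-fold threshold of the study (over 3-fold, adjusted p under 0.05 and over 5 TPM in the higher group), which 1.63% of all genes passed as lower and 0.239% as higher. The TPM were scaled between libraries before the test, since the median of all genes rose by 0.21 on the log2 scale in the mutant when TPM were taken as deposited. On deposited TPM, 71.6% of the called genes were higher, against 36.4% with scaling. Among the members, 18 were then lower and 9 higher, and the additional higher calls were *Ctsa*, *Ctsz*, *Hexa*, *Lamp2*, *Mcoln1* and *Neu1*, which are not called with scaling. The sums of the neutrophil genes (11.7 and 10.4 TPM against 139 and 137 TPM) and of the macrophage genes (110 and 123 TPM against 242 and 248 TPM) were higher in the mutant. Of the 17 macrophage genes, 4 were over 1 TPM in these libraries (*Hmox1*, *Axl*, *Vcam1* and *Lyz2*), and *Hmox1* went from 46.4 and 51.5 TPM to 135 and 151 TPM. The part of these genes' cells in the results was not tested.

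The glycosidases and sulfatases were the most uniform class, with 8 of 11 lower and none higher. *Man2b1*, the lysosomal alpha-mannosidase, was at 255 and 245 TPM in the control and at 148 and 144 TPM in the mutant PBs. The groups were clearly separated, with a log2 difference of -0.99 ± 0.09 (SE) and an adjusted p of 8.88e-05. *Naglu*, which takes part in heparan sulfate breakdown, went from 54.1 and 51.7 TPM to 34.6 and 31.2 TPM (-0.89 ± 0.10, adjusted p = 0.000284). *Galns*, the sulfatase that acts on keratan sulfate, was at 162 and 156 TPM in the control and at 102 and 102 TPM in the mutant (-0.85 ± 0.09, adjusted p = 0.000269). For *Glb1*, encoding beta-galactosidase, 286 and 280 TPM stood against 189 and 195 TPM (-0.77 ± 0.09, adjusted p = 0.000438). In each of these 4 genes, both mutant libraries were below both controls. *Gla*, encoding alpha-galactosidase A, was near the 1.5-fold mark after scaling (-0.60 ± 0.10, adjusted p = 0.00256). Its deposited values differed by less, with 64.4 and 59.8 TPM against 50.1 and 44.8 TPM. *Gaa*, *Gusb* and *Manba* were also lower, by 0.44 to 0.52 on the log2 scale, whereas *Hexa*, *Neu1* and *Fuca1* were not called. On deposited TPM, *Hexa* and *Neu1* were called higher, so that the absence of higher members in this class depends on the scaling.

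Among the proteases, 6 of 11 were lower and 1 was higher. The aminopeptidase gene *Ctsh* showed the largest difference among the members that were lower. It had 718 and 751 TPM in the control against 310 and 307 TPM in the mutant, a log2 difference of -1.46 ± 0.09 (adjusted p = 1.33e-05). *Tpp1*, a tripeptidyl peptidase, had 66.7 and 65.1 TPM against 44.9 and 46.5 TPM (-0.74 ± 0.08, adjusted p = 0.000179). *Ctsb*, encoding cathepsin B, had 460 and 455 TPM against 362 and 330 TPM (-0.61 ± 0.09, adjusted p = 0.00112). These mutant values were below those of the control without overlap. *Ctss*, the most abundant member, was lower by a smaller amount, with 1173 and 1139 TPM against 921 and 904 TPM (-0.55 ± 0.11, adjusted p = 0.00728). *Ctsd*, the aspartic protease of the lysosome, was also called lower. So was *Ctsc*, which activates the serine proteases of granules, but its values overlapped, with 173 and 152 TPM in the control and 106 and 156 TPM in the mutant (adjusted p = 0.0459), and it lost its call with deposited TPM. *Ctsa*, *Ctsz* and *Lgmn* were not called, nor was *Ctsf*.

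The lipid enzymes and the membrane proteins behaved less uniformly. *Smpd1*, encoding acid sphingomyelinase, was at 107 and 98.9 TPM in the control and at 56.2 and 50.9 TPM in the mutant PBs (-1.15 ± 0.10, adjusted p = 9.11e-05). The mutant libraries were well below the controls. *Asah1*, encoding acid ceramidase, and *Lipa*, encoding acid lipase, were called lower by 0.47 and 0.25 on the log2 scale, while the thioesterase gene *Ppt1* was called higher by 0.47. *Psap* and *Npc2*, whose products present lipids to enzymes and transporters, were not called. Of the membrane glycoproteins, *Lamp1* had 424 and 425 TPM in the control against 290 and 283 TPM in the mutant (-0.77 ± 0.08, adjusted p = 0.000167). Its close relative *Lamp2* had 306 and 295 TPM against 329 and 363 TPM, and was not called with scaling. *Slc17a5*, which encodes sialin, the exporter of sialic acid, went from 33.6 and 31.8 TPM to 16.0 and 17.4 TPM (-1.17 ± 0.10, adjusted p = 8.19e-05), whereas *Npc1* and *Mcoln1* were not called. *Creg1* went from 97.8 and 101 TPM to 48.7 and 43.7 TPM (-1.31 ± 0.08, adjusted p = 1.11e-05). In both genes, the libraries of the groups did not overlap.

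The 3 members that were higher were *Cd63*, *Ctsl* and *Ppt1*. *Cd63*, a tetraspanin of late endosomes, was at 69.2 and 81.4 TPM in the control and at 125 and 117 TPM in the mutant PBs (0.48 ± 0.09, adjusted p = 0.00371). *Ctsl*, encoding cathepsin L, was at 127 and 125 TPM in the control and at 191 and 183 TPM in the mutant (0.36 ± 0.09, adjusted p = 0.0206). The fibroblast genes moved in the same way: *Col1a1* was at 588 and 705 TPM in control, at 904 and 834 TPM in Xbp1-deficient and at 796 and 460 TPM in *Bhlha15* CreER/CreER PBs, and the sum of the 12 genes was 1228 and 1465 TPM, 1937 and 1784 TPM, and 1620 and 984 TPM in these groups. Their part in the higher values of *Cd63* and *Ctsl* was not tested. Some of the smaller calls did not hold with fewer libraries, though their signs stayed the same. Leaving out any 1 of the 4 libraries ended the calls of *Ctsl* and *Lipa*, and *Ctsc* lost its call in 3 of the 4 cases. *Ppt1*, *Ctss* and *Gusb* each lost theirs in 2 cases and *Manba* in 1.

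**Figure D2:**
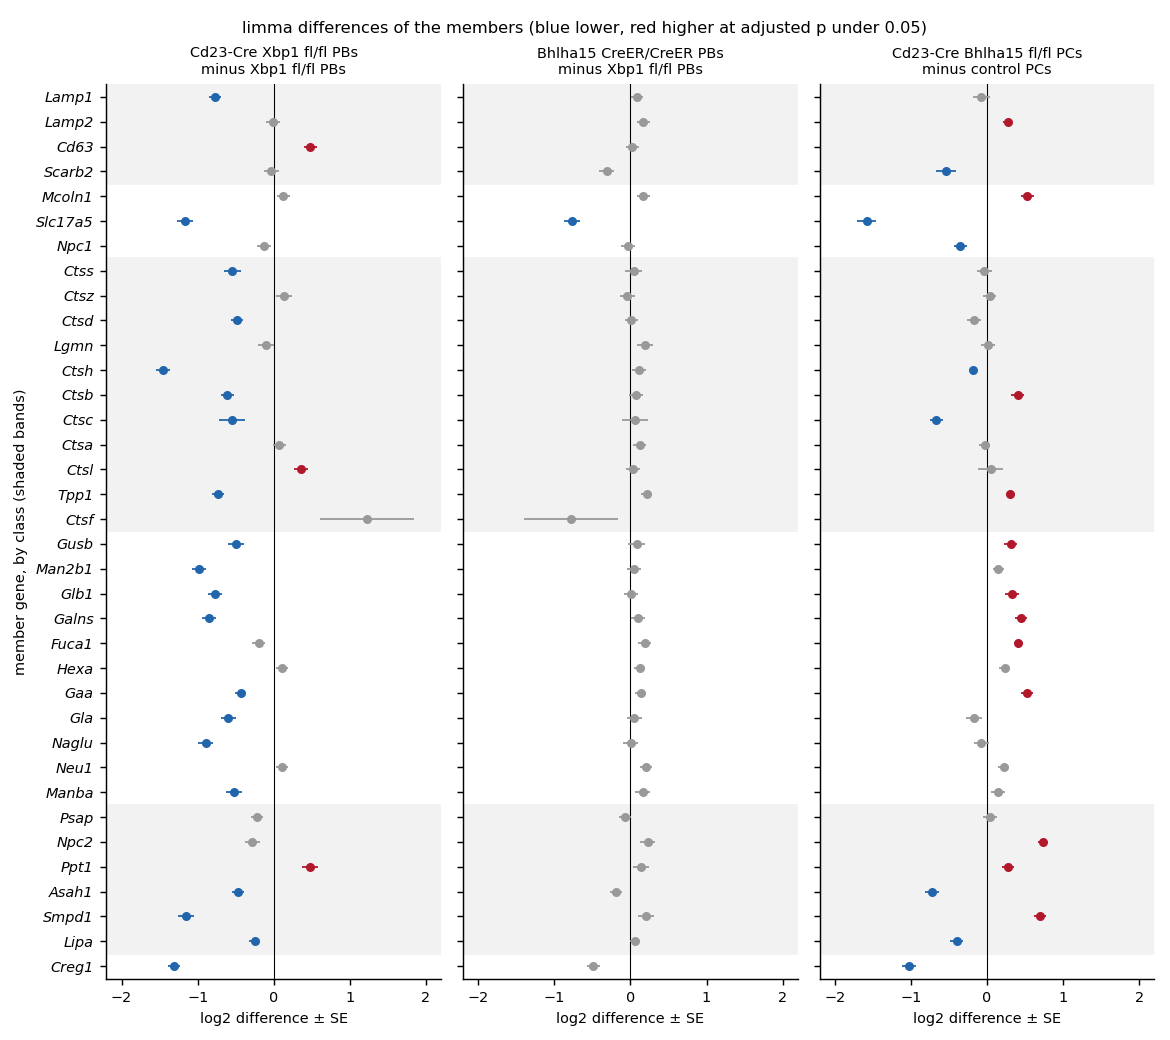
log2 difference (± SE, limma) of each member in Xbp1-deficient PBs (left), *Bhlha15* CreER/CreER PBs (middle) and Mist1-deficient PCs (right) against their controls; blue and red mark lower and higher calls at adjusted p under 0.05, grey the rest. Blue points prevail on the left (20 of 36), a single blue point is seen in the middle, and both colours are present on the right (12 higher, 8 lower); *Cd63* and *Ctsf* were not tested in PCs.

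In PBs with CreER in both *Bhlha15* alleles, a single member was called. In *Bhlha15* CreER/CreER PBs against *Xbp1* fl/fl PBs, 1 of 36 members was lower and 0 were higher by limma, where 0.272% of all genes tested were lower and 0.0495% higher. By the 3-fold rule, which 0.0330% of all genes passed as lower and 0.0165% as higher, there was no call. The median log2 difference of the members was 0.07, that of all genes 0.00. The called gene was *Slc17a5*, with 33.6 and 31.8 TPM in the control against 18.4 and 18.7 TPM (-0.77 ± 0.10, adjusted p = 0.0281). Both mutant libraries were far below both controls. *Creg1* followed, with 97.8 and 101 TPM against 70.0 and 67.8 TPM (-0.49 ± 0.08), and missed the threshold with an adjusted p of 0.0652. The call of *Slc17a5* was lost on leaving out either control library or the first *Bhlha15* CreER/CreER library, with an adjusted p of up to 0.393 over the alternatives. A p-value above the threshold does not show that the other genes were unaffected.

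The 2 mutant genotypes were then compared directly, within the model of the 6 PB libraries, so that the control libraries took part in the scaling, the filter and the variance. With only the 4 libraries compared in the model, *Asah1*, *Ctsf* and *Ctsl* lost their calls. Relative to *Bhlha15* CreER/CreER PBs, 22 of 36 members were lower and 3 higher in Xbp1-deficient PBs, where 17.8% of all genes tested were lower and 9.34% higher. By the 3-fold rule, 0 were called, against 1.66% of all genes as lower and 0.239% as higher. The glycosidases and sulfatases had 9 lower members, *Fuca1* in addition to those named above. *Ctsh* had the largest lower value, with 310 and 307 TPM against 751 and 791 TPM (-1.57 ± 0.09, adjusted p = 9.18e-06), and *Smpd1* had 56.2 and 50.9 TPM against 113 and 118 TPM (-1.36 ± 0.10, adjusted p = 3.6e-05). In both genes, the libraries were apart by a wide margin. *Creg1* was also lower, with 48.7 and 43.7 TPM against 70.0 and 67.8 TPM and a log2 difference of -0.83. *Manba* and *Ctss* passed 1.5-fold here only after scaling. Deposited values differed by less, with 15.0 and 15.2 TPM against 20.5 and 20.3 TPM for *Manba*. For *Ctss*, they were 921 and 904 TPM against 1120 and 1193 TPM. For *Slc17a5*, the difference was small, at -0.40 ± 0.10 (adjusted p = 0.0217), and it was lost with deposited TPM. *Ctsf* was called higher at 1.21 and 1.18 TPM against 0.124 and 0.244 TPM, a difference between low values that lost its call without the first *Bhlha15* CreER/CreER library. On deposited TPM, 17 members were lower and 8 higher in this comparison, and 75.9% of all called genes were higher, against 34.4% with scaling.

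Mist1-deficient splenic PCs gave a divided picture. Of 34 members tested in *Cd23*-Cre *Bhlha15* fl/fl against control PCs, 12 were higher and 8 lower, where 13.3% of all genes tested were higher and 16.2% lower. The median difference was 0.04 for the members and 0.01 for all genes, and none passed the 3-fold rule, which 0.125% of all genes passed as higher and 0.723% as lower. The glycosidases and sulfatases had 5 higher members and none lower (*Gaa*, *Galns*, *Fuca1*, *Glb1* and *Gusb*, 0.31 to 0.52 on the log2 scale). The 3 transporters and channels had 2 lower members, *Slc17a5* and *Npc1*, and 1 higher, *Mcoln1*.

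*Slc17a5* had the largest difference among the members. It was at 56.5 and 46.6 TPM in control PCs and at 17.0 and 16.6 TPM in the mutant, a log2 difference of -1.58 ± 0.12 (adjusted p = 0.00164) that falls just short of 3-fold. *Creg1* was at 170 and 150 TPM in the control and at 78.0 and 76.9 TPM in the mutant PCs (-1.02 ± 0.09, adjusted p = 0.00195). Each mutant value lay far below both controls. *Asah1* was at 136 and 122 TPM against 79.0 and 74.5 TPM (-0.72 ± 0.09, adjusted p = 0.00393), and *Ctsc* at 146 and 133 TPM against 88.6 and 84.7 TPM (-0.67 ± 0.08, adjusted p = 0.00408). These mutant values, too, were below the controls without overlap. *Scarb2*, the receptor that brings beta-glucocerebrosidase to the lysosome, had 70.5 and 55.9 TPM against 43.1 and 41.8 TPM (-0.55 ± 0.13, adjusted p = 0.0289). *Lipa* (70.8 and 62.8 TPM against 49.3 and 50.4 TPM), *Npc1* (35.4 and 33.0 TPM against 26.8 and 26.1 TPM) and *Ctsh* were lower by 0.40, 0.35 and 0.19 on the log2 scale.

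Among the genes that were higher, *Npc2*, encoding the lumenal cholesterol-binding protein, was at 253 and 249 TPM in control PCs and at 420 and 401 TPM in the mutant (0.73 ± 0.06, adjusted p = 0.00183). *Smpd1* was at 80.1 and 73.0 TPM in the control and at 122 and 122 TPM in the mutant (0.69 ± 0.08, adjusted p = 0.00334). Both were higher in each mutant library than in each control. *Mcoln1*, which encodes the calcium channel TRPML1, was at 31.8 and 38.1 TPM against 48.8 and 50.3 TPM (0.53 ± 0.08, adjusted p = 0.00912). *Gusb*, the highest glycosidase, was at 438 and 400 TPM against 535 and 489 TPM (0.31 ± 0.09, adjusted p = 0.0436). *Psap*, whose product is cleaved to the saposins, had 853 and 759 TPM against 809 and 822 TPM, with overlapping groups, and was not called.

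Many of the PC calls depended on having both mutant libraries. Without the first or the second of them, the count was 5 higher and 4 lower, or 2 higher and 4 lower, and it was 5 higher and 4 lower when the variance was not allowed to depend on expression. *Slc17a5*, *Creg1*, *Asah1*, *Ctsc*, *Npc2* and *Smpd1* kept their calls in the 10 alternatives tried. Neutrophil genes summed to 1008 and 475 TPM in the control PCs and to 868 and 575 TPM in the mutants. B cell and germinal centre genes (1014 and 1357 TPM against 805 and 887 TPM) and macrophage genes (291 and 286 TPM against 271 and 216 TPM) were lower in the mutants without overlap, and the part of these cells in the results was not tested. Without the control library with the higher neutrophil sum, the median log2 difference of the members was 0.15. Without the other control library it was -0.07, against 0.04 with both. Leaving out 1 of 2 control libraries cannot separate neutrophil content from other differences between them.

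**Figure D3:**
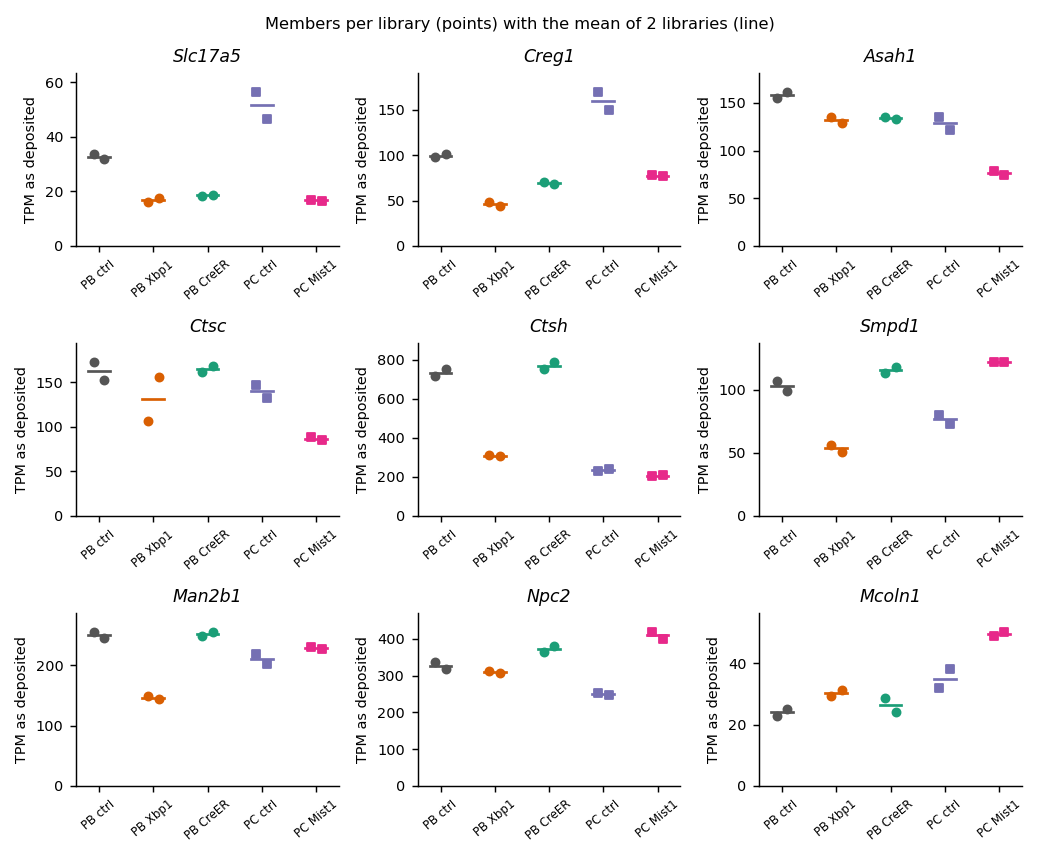
TPM as deposited of 9 members that passed a test, with 1 point per library and a line at the mean of both libraries (PB ctrl, *Xbp1* fl/fl; PB Xbp1, *Cd23*-Cre *Xbp1* fl/fl; PB CreER, *Bhlha15* CreER/CreER; PC ctrl, control; PC Mist1, *Cd23*-Cre *Bhlha15* fl/fl). *Slc17a5* and *Creg1* are below their control in the 3 mutant groups, whereas *Smpd1* is below it in Xbp1-deficient PBs and above it in Mist1-deficient PCs.

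Since the comparisons in Xbp1-deficient PBs and in Mist1-deficient PCs share no library, their calls can be set side by side. Of the 20 members that were lower in Xbp1-deficient PBs, 6 were also lower in Mist1-deficient PCs (*Asah1*, *Creg1*, *Ctsc*, *Ctsh*, *Lipa* and *Slc17a5*). Another 7 were higher there (*Ctsb*, *Gaa*, *Galns*, *Glb1*, *Gusb*, *Smpd1* and *Tpp1*), and 7 had no call. Of the 34 members tested in PCs, 12 (35.3%) were higher and 8 (23.5%) lower. The 20 members were thus higher in PCs about as often as the members as a whole. For all genes tested in both, 27.8% of the 2162 genes that were lower in Xbp1-deficient PBs were lower and 16.9% were higher in Mist1-deficient PCs. The first set comprises the genes of the sialic acid transporter, acid ceramidase and acid lipase, the protease genes *Ctsc* and *Ctsh*, and *Creg1*. The second consists of hydrolases of glycans, peptides and sphingomyelin, so that proteases and lipid hydrolases were in both sets. In the second set, only *Smpd1* kept its PC call in the 10 alternatives. *Gaa* kept it in 9, *Ctsb*, *Galns* and *Tpp1* in 7, *Glb1* in 6 and *Gusb* in 5. In the first set, *Slc17a5*, *Creg1* and *Asah1* kept both calls in each alternative. The PB calls of *Ctsc* and *Lipa* held in 4 of 11 alternatives, and the PC calls of *Ctsh* and *Lipa* in 6 and 7 of 10.

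**Figure D4:**
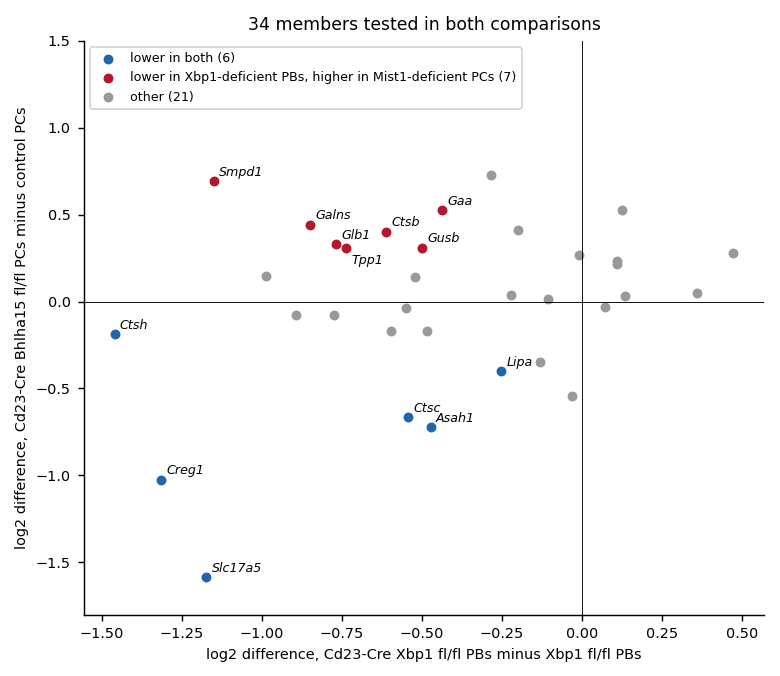
log2 difference in Xbp1-deficient PBs (x axis) against that in Mist1-deficient PCs (y axis) for the 34 members tested in both; blue marks the 6 called lower in both, red the 7 called lower in PBs and higher in PCs, grey the others. *Slc17a5* and *Creg1* lie farthest to the lower left and *Smpd1* to the upper left.

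Whether the loss of Mist1 had another effect in PCs than in PBs was tested as a difference of both effects over the 10 libraries. This difference was called for 6 of 36 members, 2 higher and 4 lower in PCs, where 1.94% and 4.17% of all genes tested were called. None passed the 3-fold rule (0.0831% higher and 0.317% lower among all genes). The effect on *Slc17a5* was more negative in PCs, with a difference of -0.80 ± 0.16 on the log2 scale (adjusted p = 0.0235). *Creg1*, *Asah1* and *Lipa* were likewise lower in PCs, with differences of -0.52, -0.52 and -0.45, and *Npc2* and *Gaa* were higher, with 0.52 and 0.41. *Smpd1* missed the threshold (0.50, adjusted p = 0.0605). The PB and PC libraries differ in culture, sort, immunization, allele and control as well, and these cannot be told apart. None of the 6 calls remained without the variance trend, without either mutant PC library or without the first *Xbp1* fl/fl PB library.

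Between the stages, most of the members were at lower levels in control PCs than in *Xbp1* fl/fl PBs. In a model of the 10 libraries, 27 of 36 were lower and 7 higher, where 38.4% of all genes tested were lower and 37.6% higher. The 11 glycosidases and sulfatases were lower, as were 9 of 11 proteases. By contrast, the 3 transporters and channels were higher in PCs, namely *Npc1* by 0.75, *Slc17a5* by 0.54 and *Mcoln1* by 0.42 on the log2 scale, and so were *Scarb2*, *Ppt1*, *Psap* and *Creg1*. *Scarb2* and *Ppt1* lost their calls without the second PB or the first PC library, *Scarb2* also without the first PB library. Among the lower members, *Gusb* kept its call in 6 of 11 alternatives (log2 difference as small as -0.0083, adjusted p up to 0.909) and lost it on deposited TPM. *Ctss* and *Ctsz* kept theirs in 8, *Ctsa* in 9 and *Ctsb* in 10 of 11, and *Gusb*, *Ctss*, *Ctsz* and *Ctsa* lost theirs without the first PB or the second PC library. Under the 3-fold rule, 4 were lower (6.19% of all genes) and 0 higher (7.77% of all genes): *Cd63*, *Ctsl*, *Ctsh* and *Lamp1*. *Ctsh* was at 718 and 751 TPM in PBs and at 232 and 243 TPM in PCs, and *Lamp1* at 424 and 425 TPM against 164 and 139 TPM. Over the alternatives, the log2 difference was -1.76 to -1.53 for *Ctsh* and -1.75 to -1.43 for *Lamp1*. These ranges lie on both sides of 3-fold, so that the place of these genes past it depends on the processing or the libraries used. *Cd63* was at 1.55 and 0.981 TPM and *Ctsl* at 17.3 and 13.0 TPM in control PCs. Both had values in PCs far below those in PBs, and *Col1a1*, at 0.451 and 0.389 TPM in control PCs, had the same pattern. The part of the feeder cells in these differences was not tested, and stage, culture, sort gate and library set cannot be told apart.

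**Figure D5:**
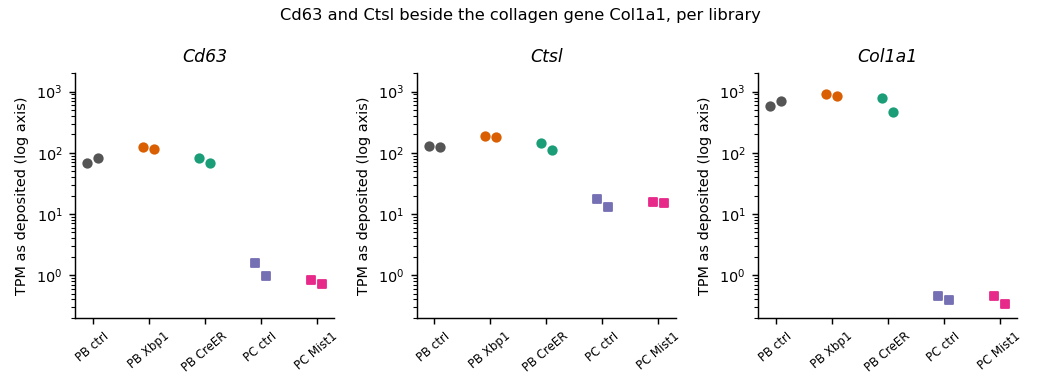
TPM as deposited on a log axis for *Cd63*, *Ctsl* and the collagen gene *Col1a1* in the 10 libraries (groups as in the plot of members per library). The 3 genes are high in the 6 PB libraries and low in the 4 PC libraries, and *Cd63* and *Ctsl* are highest in the Xbp1-deficient PBs.

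Mist1 peaks were common at the members. Regions present in both peak lists, 23806 in all, were found within 1 kb of an annotated start in 24 of 36 members (66.7%) and within 1 kb or in the gene body in 28 (77.8%). For the 10592 annotated genes tested in PCs, the shares were 65.2% and 74.4%, so that the members were near the background. Of the 8 members that were lower in Mist1-deficient PCs, 7 had a region at the start (all genes lower, 83.3%), and *Ctsh* had one in the gene body only. Of the 12 that were higher, 7 had a region at the start (all genes higher, 57.4%). The peaks come from LPS-stimulated PBs and give positions without height.

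*Slc17a5* lies on the minus strand of chromosome 9 with its annotated start at position 78435848, and the common region at chr9:78434612-78436887 spans it. It is 2276 bp wide, against a median of 1038 bp over all common regions, and holds 3 CAGCTG motifs. At least 1 such motif was present in 67.0% of all common regions. A stretch upstream of the start, chr9:78436189-78436308 on the minus strand, is shown because it lies in the region and holds a CAGCTG, in capitals.
Slc17a5: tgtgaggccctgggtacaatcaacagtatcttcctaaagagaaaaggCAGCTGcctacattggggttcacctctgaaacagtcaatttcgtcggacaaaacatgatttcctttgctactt
The region at the start of *Asah1* (chr8:42459129-42460599) held 3 CAGCTG motifs and that of *Creg1* (chr1:167693021-167694934) held 0, although it had 8 of the general form CANNTG.

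The TCACGTG motif shown above was found in 7 of the 20 members that were lower in Xbp1-deficient PBs (35.0%). It was found in 2 of 13 without a call and in 0 of 3 that were higher, and the share over the 36 members was 25.0%. Among all genes, it was present in 6.10% of those that were lower, 5.77% of those without a call and 6.03% of those that were higher. In Mist1-deficient PCs, it was present in 4 of 12 members that were higher (*Ctsb*, *Gaa*, *Glb1* and *Mcoln1*), in 0 of 8 that were lower and in 5 of 14 without a call. Among all genes, 5.72% of those that were higher and 6.25% of those that were lower had it. Hence none of the members that were lower without Mist1 has these letters in the window, *Slc17a5* included, and nothing follows from this about TFEB.

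Further genes of the pathway were examined as lists, whose counts in Xbp1-deficient PBs stand against 18.0% lower and 10.3% higher among all genes tested. Other lysosomal hydrolases had 11 lower and 2 higher of 27 tested in Xbp1-deficient PBs. *Gm2a*, the activator protein for GM2 degradation, was at 169 and 156 TPM in the control and at no more than 28.8 TPM in the mutant PBs (-2.78 ± 0.10, adjusted p = 7.92e-07). *Hgsnat*, which acts in heparan sulfate breakdown, was at 42.3 and 41.0 TPM against 15.5 and 13.5 TPM (-1.73 ± 0.10). These genes passed the 3-fold rule, which no member did. *Ctsw*, a protease gene of cytotoxic lymphocytes, was higher, though low, with 0.437 and 0.487 TPM against 3.08 and 4.89 TPM. Other lysosomal membrane proteins had 8 lower and 1 higher of 25. *Cd68*, a LAMP family member, went from 128 and 131 TPM to 16.9 and 18.7 TPM (-3.07 ± 0.08, adjusted p = 1.48e-07), *Sidt2* from 167 and 159 TPM to 43.2 and 44.8 TPM (-2.10 ± 0.08), and *Slc11a2* from 17.1 and 15.5 TPM to 8.09 and 8.55 TPM. *Cd68* is also widely used as a macrophage marker. It was lower in the Xbp1-deficient PBs, where the sum of the 17 macrophage genes was higher (110 and 123 TPM against 242 and 248 TPM). Of these 17 genes, 13 were under 1 TPM in each of these libraries, so that the sum rests on few genes, *Hmox1* among them. The part of macrophages was not tested.

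Enzyme delivery to lysosomes had 6 lower (31.6%) and 3 higher (15.8%) of 19 in Xbp1-deficient PBs. *Gnptg*, a subunit of the phosphotransferase that builds the mannose 6-phosphate tag, had 57.4 and 57.8 TPM against 18.5 and 20.3 TPM (-1.77 ± 0.11, adjusted p = 1.02e-05). *Igf2r*, the large mannose 6-phosphate receptor, had 105 and 100 TPM against 35.0 and 34.8 TPM (-1.76 ± 0.08, adjusted p = 2e-06). After scaling, both are thus among the genes past 3-fold. In the comparison with *Bhlha15* CreER/CreER PBs, *Ap3m1*, of an adaptor for lysosomal cargo, was also lower by over 2-fold. Of protease inhibitors and cofactors, 2 of 4 were lower: *Grn*, the progranulin gene, with 413 and 400 TPM against 199 and 198 TPM, and *Cst3*, the cystatin C gene, with 691 and 710 TPM against 410 and 396 TPM. V-ATPase subunits, which acidify the lysosome, had 3 lower and 2 higher of 15, near the shares of all genes (18.0% and 10.3%), with *Atp6v0d1* over 2-fold lower only against *Bhlha15* CreER/CreER PBs in the comparisons made. Lysosome regulators and mTORC1 docking had 4 lower (23.5%) and 0 higher of 17, and fusion and tethering had 1 lower (6.67%) and 2 higher of 15. In *Bhlha15* CreER/CreER PBs, 0 genes of the 7 lists were called in either direction. Among all genes tested, only 0.272% were lower and 0.0495% higher in that comparison, so that this count says little about the lists.

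In Mist1-deficient PCs, where 13.3% of all genes tested were higher and 16.2% lower, other lysosomal hydrolases had 9 higher (32.1%) and 3 lower (10.7%) of 28, with *Ctsw* at 7.64 and 9.49 TPM in the control and at 15.8 and 20.3 TPM in the mutant (1.08 ± 0.16, adjusted p = 0.0067). *Ctsw* is expressed by T and NK cells, and T cell genes summed to 86.9 and 86.7 TPM in control PCs and to 102 and 128 TPM in the mutants. Their part in the difference was not tested. Other lysosomal membrane proteins had 6 higher (23.1%) and 12 lower (46.2%) of 26. *Slc15a3*, a peptide and histidine transporter, had 27.7 and 18.5 TPM against 6.28 and 7.76 TPM (-1.66 ± 0.23, adjusted p = 0.00562) and passed the 3-fold rule. *Cln8*, an ER protein that exports lysosomal enzymes, had 16.7 and 12.8 TPM against 5.25 and 4.82 TPM (-1.50 ± 0.17), and *Atp13a2*, a polyamine exporter, had 124 and 109 TPM against 51.2 and 56.1 TPM (-1.10 ± 0.10). These genes were separated between the groups. Enzyme delivery had 3 higher (15.0%, near the share of all genes) and 6 lower of 20, led by *Gga2*, a sorting adaptor at the Golgi apparatus, with 70.1 and 70.1 TPM against 33.5 and 34.6 TPM (-1.02 ± 0.06). V-ATPase subunits had 6 higher and 1 lower of 15, regulators 0 higher and 2 lower of 16, fusion and tethering 1 higher and 3 lower of 15, and inhibitors and cofactors 0 higher and 2 lower of 4.

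Exons of 7 members overlap those of another gene in the annotation used here, namely *Lamp1*, *Npc1*, *Ctsa*, *Ctsb*, *Ctsd*, *Ctsz* and *Ppt1*, and *Glb1* has a second record of the same gene. The library kit keeps the strand, but the strand setting of the counting is not given in the sources used here, so that reads of the overlapping gene may be part of these values.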

How the data were processed

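RNA-seq was measured in 10 libraries (6 of PBs, 4 of PCs), and Mist1 binding in 2 ChIP experiments. Single reads were aligned to mm9, and the submitters' processing notes name STAR 2.4.2, featureCounts 1.5, Bowtie 1.0.0, SAMtools 1.9, Picard 2.18.27, cutadapt and MACS, without their roles. The expression values were deposited by the authors as TPM without immunoglobulin and T cell receptor genes, each library summing to 1000000. TPM keep no read depth, so that the depth is unknown and no counting error is given. The deposited peak lists, called per experiment, give positions without any other score.

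TPM were scaled by the median of ratios within each model, and log2(scaled TPM + 0.1) was tested for genes that reached 1 TPM in 2 or more libraries with limma 3.58.1 (R 4.3.3, eBayes with trend) and Benjamini-Hochberg adjustment over all genes. The 6 PB libraries formed one model, the 4 PC libraries another, and comparisons between PBs and PCs used the 10 libraries. The fold differences are on this log2 scale and understate those of low genes. The PB comparisons share libraries: both mutant genotypes have the same control, and the direct comparison uses the same mutants. The script was tested on simulated data. Peaks were intersected with bedtools 2.31.1 (overlap of at least 1 bp), and promoters were read from mm9 with the GENCODE M1 annotation. Other steps used Python 3.11.15, pandas 2.3.3, numpy 2.4.6, pysam 0.24.0 and matplotlib 3.10.9.

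Values per library are given, in at least 1 comparison, for members called with over 1.5-fold change in a comparison of mutants. They are also given for the highest and lowest member of a class. For most of these members, the values of the direct comparison between both mutant PBs are not given. From the further lists, up to 3 called genes with over 2-fold change per list and comparison were taken. Those that entered only through the direct comparison are without values. Other members were named where needed after their values were seen. The members and the lists were chosen with earlier results of these data known. Groups follow the labels, and replicates were numbered in accession order. Alternatives concerned scaling, pseudocount, filter, variance trend, libraries in the model, left-out libraries, peak overlap, distance and promoter window.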

Additional observations from a re-analysis of the deposited data

Results flagged for a closer look

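For 6 members, the effect of losing Mist1 differed between splenic PCs and cultured PBs by a test of the difference itself (limma over 10 libraries, adjusted p under 0.05, where 1.94% of all genes tested were called higher and 4.17% lower). On the log2 scale, the effect in PCs minus that in PBs was -0.80 ± 0.16 for *Slc17a5* (adjusted p = 0.0235), -0.52 ± 0.12 for *Creg1* (adjusted p = 0.0384), -0.52 ± 0.11 for *Asah1* (adjusted p = 0.0287) and -0.45 ± 0.10 for *Lipa* (adjusted p = 0.0393). It was 0.52 ± 0.10 for *Npc2* (adjusted p = 0.0243) and 0.41 ± 0.10 for *Gaa* (adjusted p = 0.0488). These calls were lost without the variance trend and, as described above, depended on single libraries. The control in PBs is of another genotype than that in PCs. Culture, sort, immunization and allele differ as well, and these cannot be told apart.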

How the results depend on the processing

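No called member changed its sign under the alternatives tried. In Xbp1-deficient PBs, the 3 higher members became 9 on deposited TPM, 8 with quantile normalization and 1 to 2 with 1 library left out, with 1 without the second *Xbp1* fl/fl or the second *Cd23*-Cre *Xbp1* fl/fl library, while the 20 lower members stayed within 1.5 times. In *Bhlha15* CreER/CreER PBs, the single lower member became 2 on deposited TPM, with quantile normalization and with a minimum of 5 TPM, 0 without a filter and without the variance trend, and 0 to 1 with 1 library left out. Between both mutant PBs, the 3 higher members became 8 on deposited TPM, 7 with quantile normalization, 1 with only the libraries compared and 1 to 3 with 1 library left out, with 1 without the second *Cd23*-Cre *Xbp1* fl/fl library. In Mist1-deficient PCs, the 12 higher and 8 lower members became 5 and 4 without the trend, and 2 to 14 and 4 to 10 with 1 library left out. For the difference of the Mist1 effects, the 2 higher members became 5 on deposited TPM, 6 with quantile normalization, 1 without a filter, 0 without the trend and 0 to 2 with 1 library left out, and the 4 lower members became 2 without a filter, 0 without the trend and 0 to 5 with 1 library left out. The cause of these changes was not tested. With 1 library left out, the lone library of its group was assumed to vary like the others. The members' counts of Mist1 regions (20 to 25, 24 as reported) and motifs stayed within 1.5 times, whereas the narrower promoter window lowered the share of tested genes with CAGCTG from 14.2% to 7.96%, with CANNTG from 63.6% to 37.3% and with CACGTG from 9.97% to 6.43%. No paired analysis was possible because the labels give no replicate numbers. With 2 libraries per group and unknown depth, small differences may have been missed.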
